A study of Homo sapiens with 6 samples.

Results

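The 9 genes described here encode enzymes that make, salvage or degrade the building blocks of DNA: the ribonucleotide reductase subunits RRM1, RRM2 and RRM2B, the thymidylate and dUTP enzymes TYMS, DUT and DTYMK, the salvage kinases TK1 and DCK, and the deoxynucleotide hydrolase SAMHD1. They were chosen by name, with earlier results of these data known, and all 9 were found among the 60676 genes listed in the deposited tables. RNA was sequenced from HT29, a human colorectal adenocarcinoma line, after 48 h in control medium (untreated), in histidine-free medium (Hdepl) or in tryptophan-free medium (Wdepl), with 2 libraries per condition. Both depletion media had dialyzed serum, but the one lacking histidine had an RPMI base and the one lacking tryptophan a base of DMEM F-12. Neither the base nor the serum of the control medium for the sequenced cells is given in the sources used here. Effects of the base medium, of the serum and of the missing amino acid against untreated cells therefore cannot be told apart. Nothing in the sources says that the libraries of a condition came from separate cultures, so the spread between them may be technical. The p-values rest on this spread, estimated mostly from all genes tested together and less from each gene's own 2 libraries per condition.

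Ribonucleotide reductase removes an oxygen from the ribose of ribonucleoside diphosphates and is the only route by which cells make deoxyribonucleotides from scratch. RRM1 is its large catalytic subunit, RRM2 is the small subunit used during S phase, and RRM2B is an alternative small subunit used outside S phase and in the response to DNA damage. TYMS methylates dUMP to dTMP with a folate cofactor, DUT hydrolyses dUTP so that uracil stays out of DNA, and DTYMK phosphorylates dTMP. TK1 phosphorylates thymidine and DCK phosphorylates deoxycytidine, deoxyadenosine and deoxyguanosine. SAMHD1 splits deoxynucleoside triphosphates into nucleosides and thus lowers their pool. In dividing cells transcription of RRM1, RRM2, TYMS, TK1 and several of the others is tied to the cell cycle through E2F factors and, at some promoters, CCAAT-binding NF-Y.

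The members lie on 8 chromosomes of GRCh38 (gencode release 44). RRM1 is at chr11:4094707-4138932 on the plus strand, RRM2 at chr2:10120698-10211725 on the plus strand and RRM2B at chr8:102204502-102238961 on the minus strand. TYMS is at chr18:657653-673578 on the plus strand, DUT at chr15:48331011-48343373 on the plus strand and DTYMK at chr2:241675747-241686944 on the minus strand. TK1 is at chr17:78174091-78187233 on the minus strand, DCK at chr4:70992538-71030914 on the plus strand and SAMHD1 at chr20:36890229-36951893 on the minus strand. All are annotated as protein-coding, and reads were counted over their exons. Of the exonic bases of TYMS, 39.9% lie under exons of ENOSF1 and 7.97% under exons of TYMSOS on the opposite strand. DUT shares 14.5% with an antisense RNA, SAMHD1 9.86% with TLDC2 on the opposite strand and DCK 6.41% with MOB1B on its own strand. Whether strand was used in counting is not given in the sources used here, so reads from these shared bases cannot be assigned. The annotation also names 3 pseudogenes of RRM2, 2 of TYMS and 8 of DUT, which can share reads with them.

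Promoter windows of 300 bases (250 before and 50 after the start) from RefSeq on GRCh38.p14 were matched for 8 of the 9 members, all but RRM2B. They were searched on both strands for the E2F words TTTCCCGC, TTTGCCGC, TTTCGCGC and TTTGGCGC and for CCAAT. An E2F word stood in the windows of TYMS, DUT and DCK, that is 3 of 8 genes, against 3.99% of the 27305 genes with a window. CCAAT stood in those of RRM1, RRM2, TK1, DTYMK and SAMHD1, 5 of 8 genes, against 39.7% of all genes. A gene counted if any of its windows matched, and the 8 members had 13 windows. By window, an E2F word stood in 3 of 13, against 3.31% of all 35116 windows. CCAAT stood in 6 of 13, against 34.6%. No window of the members held both. The following stretches are shown because they hold the words searched for at the promoters of the 6 members with the lowest fold changes in Wdepl. They are written 5′ to 3′ on the gene's own strand with the matched word in capitals, where GCGGGAAA is TTTCCCGC and ATTGG is CCAAT read on the opposite strand.

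TYMS, chr18:657604-657632, plus strand: cgggacggccGCGGGAAAaggcgcgcgga

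DUT, chr15:48332145-48332173, plus strand: ggcggggctgGCGGGAAAtttcggttttg

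DUT, chr15:48332160-48332188, plus strand: aaatttcggtTTTGGCGCgctccctgcgg

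RRM1, chr11:4094645-4094673, plus strand: gcatgtccatatCCAATggggcccatggg

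RRM2, chr2:10122604-10122632, plus strand: ggcaaggcgcagCCAATgggaagggtcgg

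RRM2, chr2:10122634-10122662, plus strand: ggcatggcacagCCAATgggaagggccgg

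RRM2, chr2:10122661-10122689, plus strand: ggggcaccaaagCCAATgggaagggccgg

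TK1, chr17:78187113-78187141, minus strand: ggccgggcgctgATTGGccccatggcggc

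DTYMK, chr2:241686891-241686919, minus strand: ccccggccccggCCAATcccttcgaattt

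In RRM2 the words start 123, 93 and 66 bases before the transcription start, in TYMS 39 and in RRM1 28. TK1 and DTYMK hold a further CCAAT each in their windows, and RRM2 one at an alternative start. A match of letters is a description of the sequence and does not show binding, and no factor's binding was measured.

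The libraries held 46390819 and 52607332 reads in untreated cells, 64388876 and 57574730 in Hdepl and 50894717 and 59514618 in Wdepl, recovered from the deposited normalized counts. Protein-coding genes took 96.9% to 97.5% of them. The colon epithelial markers, 11 genes such as EPCAM and KRT8, summed to 429575 to 455999 scaled counts in untreated cells, 525906 to 554375 in Hdepl and 607176 to 610595 in Wdepl, with KRT8 as the largest part. Most of them went the other way in Hdepl, where 7 of the 11 were lower and 4 higher with a median log2 fold change of -0.52, and LGALS4 had -1.57, CDX2 -1.37 and CEACAM5 -2.61. CDX1, at 22 and 19 counts in untreated cells, was at 0 in both Hdepl libraries. In Wdepl 6 were higher and 2 lower, with a median of 0.36, and CEACAM5 had 3.92. Of 12 markers of other cell types, 7 were at or under 5 counts in each untreated library. The leukocyte marker PTPRC and the T cell marker CD3E were among them. The list summed to 64900 to 69514 scaled counts in untreated cells, 12509 to 14535 in Hdepl and 38119 to 38149 in Wdepl. LYZ, which some epithelial cells express too, accounted for nearly all of it, with log2 fold changes of -2.31 in Hdepl and -0.82 in Wdepl. Without LYZ the sum was 133 to 138, 89.4 to 92.6 and 87.5 to 91.6. Of the 4 markers of this list tested in Hdepl, 3 were lower and 1 higher. Of the 3 tested in Wdepl, 2 were lower and 0 higher. VWF went the other way in Hdepl, at 7.65 and 3.98 in untreated cells, 42.5 and 40.7 in Hdepl and 8.54 and 8.24 in Wdepl. The part of these markers in the results below was not tested.

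Transcripts of the deoxynucleotide enzymes were lower after both depletions, and lower after tryptophan depletion than after histidine depletion. Against untreated cells, 7 of the 9 members were lower in Hdepl (RRM1, RRM2, TYMS, DUT, DTYMK, TK1 and DCK), 1 was higher (RRM2B) and SAMHD1 did not pass the test. In Wdepl 8 were lower and RRM2B was again the one that was higher. The counts are of genes with an adjusted p under 0.05 in limma, a linear model fitted on log2(normalized count + 1) across all genes. Both depletions were compared with the same untreated libraries. They moved a large part of the transcriptome: in Hdepl 38.2% of the 18288 genes tested were called lower and 39.1% higher, and in Wdepl 34.8% of 17960 were called lower and 36.1% higher. A decrease of at least 1 on the log2 scale was reached by 4 of 9 members in Hdepl (RRM1, TYMS, DUT and TK1), beside 16.1% of all genes, and by 8 of 9 in Wdepl, beside 10.4%. These counts turn on members near the limit: over the alternatives they ran from 4 to 6 in Hdepl, where RRM2 and, with total reads, DCK passed it too, and from 7 to 8 in Wdepl, where SAMHD1 fell short. The median log2 fold change of the members was -0.996 in Hdepl and -2.43 in Wdepl, where the medians of all genes tested were 0.01 and 0.01. Together the 9 genes took 0.0800% ± 0.000257 of all reads in untreated cells (SD, n = 2), 0.0347% ± 0.00177 in Hdepl and 0.0146% ± 0.000068 in Wdepl. In bulk RNA, fewer cells in S phase and less RNA per cell cannot be told apart.

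**Figure D1:**
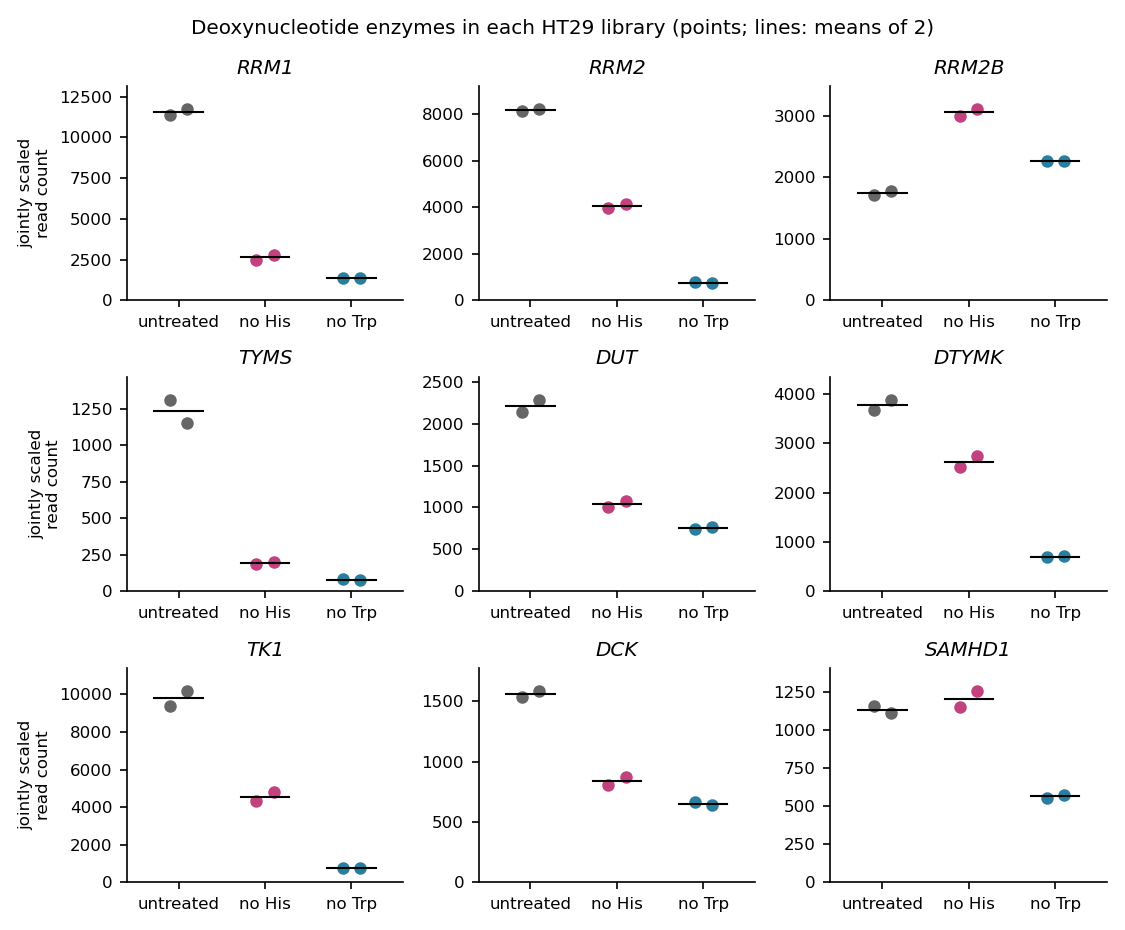
Read counts, jointly scaled over the 6 libraries, of the 9 deoxynucleotide enzymes in untreated, histidine-depleted (no His) and tryptophan-depleted (no Trp) HT29 cells. Each point is a library and each line the mean of 2, and every panel starts at 0. For 7 genes the levels fall from untreated to no His to no Trp, RRM2B is highest without histidine, and SAMHD1 is lower only without tryptophan.

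The subunits of ribonucleotide reductase differed in how they responded. RRM1 stood at 11402 and 11745 scaled counts in the untreated libraries, 2497 and 2815 in Hdepl and 1346 and 1371 in Wdepl. The groups did not overlap, and the large subunit lost most of its transcript in both depletions. Its log2 fold change was -2.12 (SE 0.0552, adjusted p = 1.78e-20) in Hdepl, which left 23.1% of the untreated level, and -3.10 (SE 0.0480, adjusted p = 1.37e-101) in Wdepl, which left 11.7%. In Hdepl 3.16% of the tested genes had a lower fold change than RRM1.

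RRM2, the S phase small subunit, stood at 8114 and 8223 in untreated cells, 3984 and 4157 in Hdepl and 772 and 757 in Wdepl. All libraries of a condition sat apart from those of the others. The log2 fold change was -0.996 (SE 0.0497, adjusted p = 4.00e-15) in Hdepl, with 50.1% of the level left, which placed RRM2 just short of the limit of 1 used above. In Wdepl it was -3.42 (SE 0.0510, adjusted p = 7.75e-104), with 9.32% left. Histidine depletion thus left more RRM2 than RRM1 relative to untreated cells, whereas tryptophan depletion left less RRM2 than RRM1. The 95% intervals of the subunits did not overlap in either depletion, but the difference between subunits was not itself tested.

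RRM2B moved the other way. It stood at 1714 and 1772 in untreated cells, 2998 and 3110 in Hdepl and 2260 and 2272 in Wdepl, without overlap of the conditions. It rose by 0.82 on the log2 scale (SE 0.0547, adjusted p = 1.20e-12) in Hdepl and by 0.37 (SE 0.0533, adjusted p = 3.84e-10) in Wdepl. These are increases of 1.76-fold and 1.29-fold. The values are modest beside the whole transcriptome, since 3815 of the genes tested in Hdepl and 5196 in Wdepl had a higher fold change.

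To compare levels between genes, scaled counts were divided by the length of the Ensembl canonical transcript in kb. On this scale RRM2B made up 12.7% ± 0.160 (SD, n = 2) of the 2 small subunits in untreated cells, 33.9% ± 0.0926 in Hdepl and 66.9% ± 0.372 in Wdepl. In Wdepl, RRM2B thus exceeded RRM2, with 474.6 ± 1.73 against 234.6 ± 3.09 counts per kb, whereas untreated cells held 365.1 ± 8.68 against 2507 ± 23.5. With the length of all annotated exons in place of the canonical transcript, which is longer for RRM2, the shares were 26.6%, 56.0% and 83.4% in the same order of conditions, so that RRM2B then exceeded RRM2 in Hdepl as well. The count of RRM1 per small subunit transcript was 1.28 ± 0.0125 in untreated cells, 0.447 ± 0.0250 in Hdepl and 0.609 ± 0.00915 in Wdepl. With all exons it was 2.25, 0.620 and 0.637, and both depletions stayed below untreated cells on either length.

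**Figure D2:**
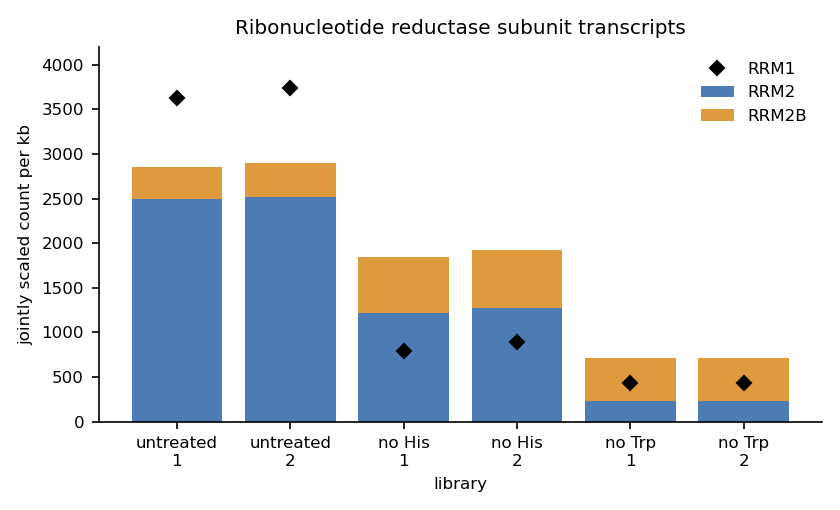
Jointly scaled counts per kb of canonical transcript for the small subunits of ribonucleotide reductase (stacked bars, RRM2 and RRM2B) and for the large subunit RRM1 (diamonds) in each of the 6 libraries, on a linear axis from 0. RRM1 stands above the stacked small subunits in untreated cells and below them in both depletions, and RRM2B is the larger part of the bar only without tryptophan.

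The thymidylate branch held the member with the largest decrease. TYMS stood at 1311 and 1154 in untreated cells, 189 and 199 in Hdepl and 86.4 and 75.1 in Wdepl. Every depleted library was far below both untreated libraries, and the Wdepl values rest on 81 and 82 reads, with exact 95% Poisson intervals of 64.3 to 101 and 65.2 to 102 reads, which cover counting error only. TYMS fell by 2.65 on the log2 scale (SE 0.0876, adjusted p = 1.47e-18) in Hdepl and by 3.92 (SE 0.101, adjusted p = 4.53e-74) in Wdepl, which left 15.9% and 6.60% of its level. In Wdepl 32 of the genes tested had a lower fold change. The genes that overlap TYMS on the opposite strand were lower as well. ENOSF1, a mitochondrial enolase family gene, had log2 fold changes of -1.91 (adjusted p = 2.78e-17) and -0.77 (adjusted p = 9.44e-29). TYMSOS, a non-coding RNA with 45 and 39 reads in untreated cells, had 7 and 5 in Hdepl and 2 and 6 in Wdepl.

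DUT stood at 2138 and 2281 in untreated cells, 1001 and 1082 in Hdepl and 741 and 767 in Wdepl. It had log2 fold changes of -1.08 (SE 0.0621, adjusted p = 6.88e-14) and -1.56 (SE 0.0595, adjusted p = 9.92e-54) on the log2 scale. Both decreases were smaller than those of TYMS, the enzyme that takes up the dUMP it releases, and the 95% intervals did not overlap. The count of DUT per TYMS transcript, per kb, was 1.36 ± 0.184 in untreated cells, 4.04 ± 0.0650 in Hdepl and 7.08 ± 0.880 in Wdepl (SD, n = 2).

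DTYMK, the next kinase in the path to dTTP, stood at 3679 and 3874 in untreated cells, 2511 and 2739 in Hdepl and 695 and 714 in Wdepl. It had the smallest decrease of the 7 members called lower in Hdepl, a log2 fold change of -0.52 (SE 0.0555, adjusted p = 8.06e-09), which left 69.9% of its level. In Wdepl the log2 fold change was -2.43 (SE 0.0559, adjusted p = 5.92e-80), which left 18.6%.

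Both salvage kinases were lower in each depletion. The 95% intervals of their log2 fold changes overlapped in Hdepl but not in Wdepl, and the difference between them was not itself tested. TK1 stood at 9398 and 10186 in untreated cells, 4316 and 4821 in Hdepl and 761 and 787 in Wdepl. Its log2 fold change was -1.09 (SE 0.0565, adjusted p = 8.18e-15) in Hdepl and -3.67 (SE 0.0508, adjusted p = 8.31e-108) in Wdepl, so that 46.9% and 7.88% of the level were left. DCK stood at 1540 and 1586 in untreated cells, 806 and 872 in Hdepl and 666 and 641 in Wdepl. Its groups did not overlap either, and its decreases in the depletions lay closer together than those of TK1, with log2 fold changes of -0.89 (SE 0.0650, adjusted p = 6.76e-12) and -1.26 (SE 0.0637, adjusted p = 5.67e-41). Per kb, untreated cells held 10.97 ± 0.394 TK1 transcripts for each DCK transcript, Hdepl 9.53 ± 0.214 and Wdepl 2.08 ± 0.106.

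SAMHD1, the hydrolase that splits deoxynucleoside triphosphates into nucleosides, stood at 1153 and 1110 in untreated cells, 1149 and 1255 in Hdepl and 555 and 575 in Wdepl. The untreated and Hdepl libraries overlapped on this joint scale, though not in the deposited table of the histidine comparison. The log2 fold change in Hdepl was 0.09 with a 95% interval of -0.04 to 0.23 (adjusted p = 0.187), and it was past the threshold, at 0.21 (adjusted p = 0.00853), under 1 of the 15 alternatives, quantile normalization. Scaling to total reads turned it to -0.095 (adjusted p = 0.174), and with a library left out it ranged from 0.035 to 0.15. In Wdepl SAMHD1 fell by 1.01 (SE 0.0690, adjusted p = 7.87e-29). Per kb, RRM2 transcripts outnumbered those of SAMHD1 10.3 ± 0.374 to 1 in untreated cells, 4.84 ± 0.154 to 1 in Hdepl and 1.93 ± 0.0742 to 1 in Wdepl.

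**Figure D3:**
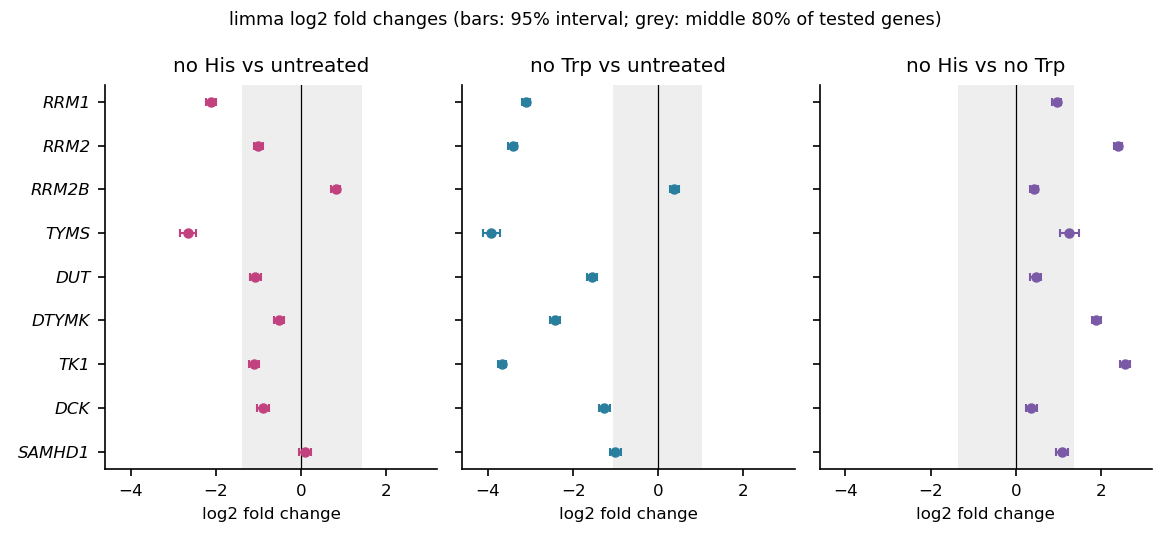
Log2 fold changes of the 9 members from limma, with 95% intervals, for histidine depletion against untreated, tryptophan depletion against untreated, and histidine against tryptophan depletion; the grey band holds the middle 80% of all genes tested. In the histidine comparison RRM1 and TYMS lie outside the band, in the tryptophan comparison all members but RRM2B and SAMHD1 lie outside it, and in the direct comparison all 9 lie above 0.

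The question of whether the enzymes differed between the depletions was put in a direct comparison, with all 6 libraries scaled together. All 9 members were higher in Hdepl than in Wdepl, beside 38.7% of the 18264 genes tested. The members' median difference was 1.09 on the log2 scale and that of all genes 0.01. A difference of at least 1 was reached by 5 members, beside 16.0% of all genes, and by 4 to 6 over the alternatives. The difference was 2.56 for TK1 (SE 0.0542, adjusted p = 7.59e-17) and 2.41 for RRM2 (SE 0.0434, adjusted p = 1.59e-17), which are 5.89-fold and 5.32-fold higher levels without histidine than without tryptophan. DTYMK followed with 1.89, TYMS with 1.26 and SAMHD1 with 1.09. The difference was 0.96 for RRM1, 0.46 for DUT, 0.43 for RRM2B and 0.36 for DCK, with adjusted p between 1.09e-11 for RRM1 and 4.25e-05 for DCK. RRM2B, the one member called higher against untreated cells, was thus also higher in Hdepl here.

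The order of transcript levels per kb changed with the condition. In untreated cells TK1 was highest at 6843 ± 390 counts per kb (SD, n = 2), followed by RRM1 at 3683 ± 77.0 and DTYMK at 3593 ± 131, whose libraries overlapped. RRM2, DUT, TYMS, DCK, RRM2B and SAMHD1 followed without overlap between neighbours, down to 243.4 ± 6.56 for SAMHD1. In Hdepl the order was TK1, DTYMK, RRM2, RRM1, RRM2B, DUT, DCK, SAMHD1 and TYMS, and in Wdepl DTYMK, TK1, RRM2B, RRM1, DUT, DCK, RRM2, SAMHD1 and TYMS, in neither case with an overlap between neighbours on this length. RRM2B went from eighth place in untreated cells to the fifth in Hdepl and the third in Wdepl. With the length of all annotated exons the order differed: RRM2B then had rank 8, 4 and 1 in untreated, Hdepl and Wdepl, overlapping with TK1 in Wdepl, and DTYMK had rank 4 in Wdepl rather than 1. Neighbours overlapped more often on that length, with DCK and DUT among them in Wdepl. TYMS went from the sixth place to the last in both depletions on either length, at canonical levels of 120.4 ± 4.65 and 50.1 ± 4.98. The highest and the lowest member were 6843 and 243.4 in untreated cells but 670.3 and 50.1 in Wdepl.

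Across the 6 libraries, the genes with the pattern most like RRM2 were sought among 11013 protein-coding genes with a mean of at least 100, by the Euclidean distance between log2 profiles centred on their mean. The nearest were KIF18B (distance 0.0917), CENPU (0.220), TK1 (0.268), TCF19 (0.291) and BARD1 (0.300). KIF18B encodes a mitotic kinesin, CENPU a centromere protein and BARD1 the partner of BRCA1. KIF18B averaged 3629, 1892 and 352 scaled counts in untreated, Hdepl and Wdepl. Among the members, TK1 had rank 3, DTYMK 74, RRM1 192, TYMS 244, DUT 433, SAMHD1 593, DCK 609 and RRM2B 6672. The genes nearest to RRM2B were TRPC4AP (0.0456), GNPNAT1 (0.0539), AATF (0.0552), YAF2 (0.0605) and the epithelial keratin KRT8 (0.0654). The annotation names 51 pseudogenes of KRT8 and places 35.6% of the exonic bases of GNPNAT1 under exons of the opposite strand, so their counts are uncertain.

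Genes known to control the members were examined next. Of 23 such genes, 15 were lower and 4 higher in Hdepl, and 19 were lower and 2 higher in Wdepl. Of all genes tested, 38.2% were lower and 39.1% higher in Hdepl, and 34.8% and 36.1% in Wdepl. The counts of this and the following lists are to be read beside these shares. Their medians were -0.30 and -2.14 on the log2 scale. E2F1, an activator of S phase genes, stood at 2898 and 2769 in untreated cells, 1005 and 1152 in Hdepl and 270 and 239 in Wdepl, with log2 fold changes of -1.39 (adjusted p = 8.07e-16) and -3.48 (adjusted p = 1.06e-88). MYBL2, which also drives cell cycle genes, had the lowest fold change of the list in Hdepl, at -2.44, and -4.48 in Wdepl. CCNF, the cyclin whose ubiquitin ligase targets the RRM2 protein in G2, had log2 fold changes of -1.18 and -2.48. FZR1, the Cdh1 activator of the ligase that targets RRM2 and TK1 after mitosis, had -0.17 (adjusted p = 0.0152) and -0.64 (adjusted p = 4.90e-21).

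CDK1, which drives mitotic entry and phosphorylates SAMHD1, stood at 6229 and 6546 in untreated cells and 6334 and 6233 in Hdepl, where the log2 fold change was -0.01 (adjusted p = 0.807). It was called lower there with total reads (-0.20, adjusted p = 0.000191) and quantile normalization (-0.21, adjusted p = 0.000157). In Wdepl it stood at 903 and 1057 and fell by 2.72 (adjusted p = 8.77e-89). CCNA2, the cyclin A gene, had 0.00 (adjusted p = 0.977) in Hdepl, which both of these scalings called lower as well, at -0.19 and -0.15, and -2.64 (adjusted p = 1.13e-85) in Wdepl. CDK2 had log2 fold changes of -0.30 (adjusted p = 3.23e-05) and -1.49 (adjusted p = 1.04e-52). CHEK1, the checkpoint kinase that guards replication, had log2 fold changes of -1.26 and -3.42. RB1, which holds E2F factors inactive, rose by 0.75 in Hdepl (adjusted p = 1.26e-12) and had -0.07 in Wdepl (adjusted p = 0.152). AHCYL1, an inhibitor of ribonucleotide reductase that responds to dATP, fell by 0.46 in Hdepl (adjusted p = 1.08e-08) and rose by 0.15 in Wdepl (adjusted p = 0.00274).

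All 18 replication genes of the S phase list were lower in both depletions and higher in Hdepl than in Wdepl, with medians of -1.61 and -2.62 against untreated cells. PCNA, the sliding clamp, stood at 7557 and 7411 in untreated cells, 3594 and 3824 in Hdepl and 1187 and 1254 in Wdepl. Its log2 fold changes, -1.004 (adjusted p = 4.98e-15) and -2.62 (adjusted p = 1.85e-90), sit beside the members' medians of -0.996 and -2.43. CDT1, a replication licensing factor, had -1.92 and -3.84. CDC45, a part of the replicative helicase, had -0.88 and -4.56. All 8 proliferation markers were lower in Wdepl, with a median of -2.17. In Hdepl 5 were lower and 2 higher, with a median of -0.47. The 2 were the mitotic genes CCNB1 (0.23, adjusted p = 0.000277) and PLK1 (0.13, adjusted p = 0.0248), named after their values were seen, and both turned negative after quantile normalization. The call of PLK1 was also lost under 6 other alternatives and that of CCNB1 with total reads. MKI67 had -0.84 and -2.31, and the topoisomerase TOP2A -1.66 and -3.25. Their part in the levels of the members was not tested.

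CDKN1A, which encodes the cell cycle inhibitor p21, stood at 1151 and 1216 in untreated cells, 8591 and 8181 in Hdepl and 1404 and 1381 in Wdepl. It rose by 2.83 (adjusted p = 5.95e-23) in Hdepl and by 0.23 (adjusted p = 0.000371) in Wdepl.

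The folate enzymes that serve TYMS followed it in part. Of 11 genes, 8 were lower and 2 higher in Hdepl, and 7 were lower and 3 higher in Wdepl, with medians of -0.86 and -0.60. GGH, which removes glutamates from folates, had log2 fold changes of -2.15 and -3.32, and the cytosolic serine hydroxymethyltransferase SHMT1 had log2 fold changes of -1.004 and -2.06. Its mitochondrial counterpart SHMT2 rose by 0.25 (adjusted p = 0.000329) and by 0.79 (adjusted p = 1.22e-29). The rise in Hdepl depends on the scaling: with total reads the median of all genes moved from 0.01 to -0.18, a shift near the size of that rise.

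The mitochondrial salvage kinases, which serve mitochondrial DNA, each moved in the direction of TK1 and DCK in 1 depletion and in the other direction in the second. TK2 stood at 826 and 808 in untreated cells, 241 and 255 in Hdepl and 1078 and 1102 in Wdepl. It fell by 1.71 (adjusted p = 5.29e-15) in Hdepl and rose by 0.41 (adjusted p = 1.27e-08) in Wdepl. DGUOK had 0.35 (adjusted p = 3.42e-06) in Hdepl and -0.52 (adjusted p = 4.56e-16) in Wdepl. Genes on the opposite strand overlap 15.6% of the exonic bases of TK2, as they do 41.2% of DCTPP1 and 16.8% of CDK2. Neighbours on the same strand share 19.0% of the exonic bases of TYMP and 15.6% of those of NME4, which are described next.

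The other 13 genes tested on the list of salvage, turnover and sanitising enzymes moved in both directions. Over all 15 tested of the 16 listed, 9 were lower and 5 higher in Hdepl and 8 were lower and 6 higher in Wdepl, with medians of -0.43 and -0.38. The shares over all genes were 38.2% lower and 39.1% higher in Hdepl, and 34.8% and 36.1% in Wdepl. CDA, which deaminates cytidine and deoxycytidine, stood at 324 and 316 in untreated cells, 110 and 128 in Hdepl and 966 and 928 in Wdepl. It fell by 1.41 and rose by 1.56. UPP1, the uridine phosphorylase, rose by 2.34 and by 1.66, and TYMP, the thymidine phosphorylase, by 1.49 and by 2.28. NUDT1, which removes oxidised purine nucleotides, had log2 fold changes of -1.07 and -2.996, and DCTPP1, a dCTP pyrophosphatase, had log2 fold changes of -0.55 and -1.14. DCTD, which turns dCMP into the dUMP used by TYMS, had -0.03 (adjusted p = 0.636) in Hdepl, called lower with total reads (-0.22) and quantile normalization (-0.17), and 0.12 (adjusted p = 0.0218) in Wdepl.

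Nucleotide kinases, transporters and the genes of ribonucleotide synthesis complete the pathway. Over all genes tested, 38.2% were lower and 39.1% higher in Hdepl, and 34.8% and 36.1% in Wdepl. The kinase and transporter counts below are not far from these shares. Of 16 kinases, 8 were lower and 5 higher in Hdepl and 6 were lower and 7 higher in Wdepl. NME1, a diphosphate kinase whose exons are shared for 18.7% with a read-through gene, had -0.16 (adjusted p = 0.0156) and -1.59 (adjusted p = 2.02e-53), while its mitochondrial relative NME4 had log2 fold changes of -2.35 and -0.79. Of 8 transporters tested, 4 were lower and 3 higher in Hdepl and 4 were lower and 4 higher in Wdepl. SLC29A1, the main equilibrative nucleoside carrier, had log2 fold changes of -0.89 (adjusted p = 3.21e-11) and -1.32 (adjusted p = 8.85e-45). All 5 pyrimidine synthesis genes were lower in both, with medians of -0.62 and -0.66. CTPS2, a CTP synthase, had log2 fold changes of -2.99 in Hdepl and -0.99 in Wdepl. Of 13 purine synthesis genes, 8 were lower and 2 higher in Hdepl and 9 were lower and 1 higher in Wdepl. GMPS, the GMP synthase, fell by 1.82 in Hdepl and had -0.04 (adjusted p = 0.460) in Wdepl.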

How the data were processed

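The authors trimmed the reads, aligned them to GRCh38 with STAR 2.7.10a, counted exon reads per gene with HTSeq 2.0.5 on gencode release 38, divided the counts by DESeq2 size factors and deposited them as normalized counts, a signal with 1 table per depletion that holds the same untreated libraries. Use of molecular identifiers and strand in counting is not given in the sources used here. Every library's values (100%) were whole multiples of its own step (tolerance 0.001 of a read), and division by that step returned the reads. The table of all 6 libraries was scaled by median of ratios over 22191 genes for the direct comparison and for values set side by side.

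Two-sided limma tests (version 3.58.1, R 4.3.3, with a mean-variance trend and no robust fit) were run on log2(normalized count + 1) where a gene's mean reached 10, with Benjamini-Hochberg adjustment over all genes tested and a threshold of 0.05. This scale understates changes of low genes. The variance of each gene was drawn toward those of all genes tested. The total degrees of freedom were 23.2 in Hdepl, 137 in Wdepl and 16.4 in the direct comparison, most of them from other genes. Very small p-values therefore do not reflect the gene's own libraries alone. Each depletion was tested within its own table. Means carry SD with n = 2. The code was tested on simulated data. The fits were repeated with other pseudocounts (0.5 or 8), without a filter or with a limit of 50, without the trend, with scaling to total reads or quantiles, with edgeR 4.0.16 or DESeq2 1.42.0 run on whole reads, with replicate numbers as a block, with the 6 libraries in 1 model, and with each library removed in turn. The length of all exons was tried after seeing the data.

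The members, the gene lists and the tests were chosen with earlier results of these data known. The text names the members, the genes fixed by name, up to 4 genes of each list with the largest change past the threshold and a mean of at least 100, and the 5 genes nearest to RRM2 and to RRM2B. Not every gene the rule selects is named, and some are not reported here. Gene names and positions came from gencode release 44, which lacks 319 of the 60676 identifiers. Figures were drawn with matplotlib 3.10.9.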

Additional observations from a re-analysis of the deposited data

Results flagged for a closer look

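For each member the responses to the depletions differed in the direct test of histidine against tryptophan depletion by limma, in which 38.7% of all genes tested were called higher without histidine. On the log2 scale the difference was 0.96 for RRM1, 2.41 for RRM2, 0.43 for RRM2B, 2.56 for TK1, 1.26 for TYMS, 0.36 for DCK, 1.89 for DTYMK, 0.46 for DUT and 1.09 for SAMHD1. The media of the depletions also differed in their base, and the base and the missing amino acid cannot be told apart.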

How the results depend on the processing

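Of 414 values of the members under the alternatives, 412 kept their direction and their side of the threshold. Both others concern SAMHD1 in Hdepl: scaling to total reads gave -0.095 (adjusted p = 0.174), and quantile normalization passed the threshold and brought the members called higher in Hdepl from 1 to 2. Scaling to total reads moved the median of all genes in Hdepl to -0.18. The replicate numbers did not pair the samples (correlations of 0.0965, -0.0667 and -0.132). With a replicate block the counts of members stayed at 1 higher and 7 lower in Hdepl and 1 higher and 8 lower in Wdepl, while all genes called went from 7149 higher and 6981 lower to 7311 and 7121 in Hdepl. Without either library of a condition the fold change of RRM2 in Hdepl ranged from -1.02 to -0.97. Of 2434 values of other named genes, 2372 kept both, 39 lost their call and 15 gained one. The cases given below are only some of these. Other small fold changes printed with an adjusted p may be among the rest. In Hdepl, CDK1, CCNA2 and DCTD were called lower with total reads (-0.20, -0.19 and -0.22) and with quantile normalization (-0.21, -0.15 and -0.17). PLK1 was also not called without a filter (adjusted p = 0.0705), without the trend (0.162), or without untreated replicate 1 (0.104), Hdepl replicate 1 (0.218) or Hdepl replicate 2 (0.143), and CCNB1 with total reads (0.279). Small values changed sign: in Hdepl, with a library left out, DCTD ranged from -0.088 without untreated replicate 1 to 0.030 without untreated replicate 2 (0.019 without Hdepl replicate 1), CDK1 from -0.053 to 0.024 (0.00065 without Hdepl replicate 2) and CCNA2 from -0.066 to 0.062 for the same untreated libraries, and PLK1 in Hdepl was -0.059 with total reads and -0.10 (adjusted p = 0.0145) with quantile normalization, which gave CCNB1 -0.023. The cause was not tested. Depth limits TYMS in Wdepl, at 81 and 82 reads, and TYMSOS, at 2 and 6.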
